A study of Mus musculus with 6 samples.

Results

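Breakdown of the branched-chain amino acids and of propionate was followed through 31 genes, chosen by symbol as enzymes and regulators of leucine, isoleucine and valine catabolism, propionate conversion and neighbouring aldehyde and transaminase steps. Each symbol matched 1 row, so that 31 of the 29734 genes in the table were described. The livers came from male mice whose Western diet, a feed rich in fat and sugar, began at 8 weeks of age and lasted 20 weeks. The Prdx1C52S group (3 libraries, replicates 1, 2 and 4) carried the PRDX1 Cys52Ser substitution in peroxiredoxin 1, a peroxidase that reduces hydrogen peroxide, and WT livers (3 libraries, replicates 6, 8 and 9) had that residue intact. All 6 libraries shared sex and diet, and the labels do not say whether each is 1 animal or a pool. The p-values therefore measure the spread between these libraries.

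Leucine, isoleucine and valine first lose their amino group to branched-chain aminotransferases, and the resulting ketoacids are then decarboxylated by the mitochondrial branched-chain ketoacid dehydrogenase in an irreversible step. A kinase, BCKDK, phosphorylates and inactivates that complex, and the phosphatase PPM1K restores it. Liver is known for low aminotransferase and high dehydrogenase activity, so that it takes up ketoacids formed in other tissues. Beyond the dehydrogenase the routes part: leucine ends in acetyl-CoA and acetoacetate, while valine and isoleucine give propionyl-CoA, which biotin- and cobalamin-dependent enzymes convert to succinyl-CoA.

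Sequences upstream of 4 members are shown, picked after their values were seen. Mmab and Hibadh were among the most different between the genotypes, and the kinase Bckdk stood apart from its target Bckdha. These sequences do not include Abat, the member with the highest fold change, which had no window in the set used. They are RefSeq windows on GRCm38.p6, from 250 bases before to 50 bases after the annotated start, read along the gene. Capitals mark matches on either strand to the motifs searched.
Mmab, chr5:114443978-114444277, minus strand: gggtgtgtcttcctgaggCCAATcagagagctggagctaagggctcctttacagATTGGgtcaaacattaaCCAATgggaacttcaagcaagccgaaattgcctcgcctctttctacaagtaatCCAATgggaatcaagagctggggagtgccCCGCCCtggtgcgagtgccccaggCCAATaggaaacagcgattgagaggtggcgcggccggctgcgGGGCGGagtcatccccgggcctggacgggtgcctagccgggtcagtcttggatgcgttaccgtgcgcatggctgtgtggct
Hibadh, chr6:52640251-52640550, minus strand: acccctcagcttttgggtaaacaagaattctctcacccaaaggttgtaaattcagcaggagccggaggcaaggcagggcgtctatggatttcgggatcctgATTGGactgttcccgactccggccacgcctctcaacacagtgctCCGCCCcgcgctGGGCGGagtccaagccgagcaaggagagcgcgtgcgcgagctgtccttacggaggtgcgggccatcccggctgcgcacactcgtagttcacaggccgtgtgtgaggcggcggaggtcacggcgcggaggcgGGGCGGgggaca
Bckdk, chr7:127903823-127904122, plus strand: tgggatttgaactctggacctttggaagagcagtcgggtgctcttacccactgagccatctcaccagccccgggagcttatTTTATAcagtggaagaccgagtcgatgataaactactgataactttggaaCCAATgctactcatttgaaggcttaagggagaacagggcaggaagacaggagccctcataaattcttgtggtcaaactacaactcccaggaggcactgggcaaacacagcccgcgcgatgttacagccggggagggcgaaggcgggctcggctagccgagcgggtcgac
Bckdha, chr7:25658712-25659011, minus strand: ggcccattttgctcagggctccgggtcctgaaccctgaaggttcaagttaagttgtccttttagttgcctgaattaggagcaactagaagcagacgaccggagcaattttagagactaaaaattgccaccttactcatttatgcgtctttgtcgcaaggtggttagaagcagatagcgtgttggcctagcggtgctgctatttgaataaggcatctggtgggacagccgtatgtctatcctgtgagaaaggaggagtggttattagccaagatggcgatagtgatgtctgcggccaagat
The motifs were the CCAAT box (CCAAT), the GC box (GGGCGG), the NRF1 motif (core CGCATGCG), the E-box (CACGTG), the TATA box (TATAAA) and the estrogen-related receptor motif (TCAAGGTCA), and none of them holds another. The Mmab window held 5 CCAAT boxes and 2 GC boxes, the Hibadh window 1 CCAAT box and 3 GC boxes, the Bckdk window 1 CCAAT and 1 TATA match, and the Bckdha window had no match. Read along the gene, 4 of the Mmab CCAAT boxes followed one another every 53 bases. Between neighbouring stretches cut at these boxes, 14, 17 and 28 of the 53 bases were identical. These counts include the CCAAT letters, which match by construction, and whether they exceed the identity of unrelated stretches was not tested. Of the members, 26 had a window, 33 windows in all. CCAAT stood in 63.6% of the 33 windows against 37.4% of all 32851 windows, the GC box in 45.5% against 35.7%, the NRF1 core in 3.03% against 1.87%, the TATA box in 12.1% against 13.6% and the E-box in 6.06% against 7.15%. The estrogen-related receptor motif matched no member window and 0.423% of all windows. Member windows held a median of 16 CG dinucleotides, against 7 in all windows. These matches are letters in a window, and no binding was measured here.

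Transcripts of 29 of the 31 members had positive log2 fold changes (Prdx1C52S minus WT), with a median of 0.52 against -0.03 for the 18931 genes tested. The exceptions were Bckdk and the barely detected Bcat1. In the edgeR quasi-likelihood test with adjustment over all genes, 0 members passed an adjusted p of 0.05 in either direction, as did 0% of all genes. At an unadjusted p under 0.05, 22 members were higher and 0 lower, beside 11.5% of all genes higher and 14.8% lower. The 3 Prdx1C52S libraries all lay above the 3 WT libraries for 26 members on the TMM-scaled CPM (counts relative to library size), beside 16.9% of all genes tested and 23.2% of those with a mean of at least 1 FPKM. They lay below for 0 members, beside 18% of all genes. TMM scaling corrects each library total for composition, and log2 fold changes and their standard errors (SE) below use it. All 31 members passed the filter on low counts.

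The scale of the comparison moved every value. With library totals alone, the median of all genes was -0.34 and that of the members 0.24, so that the members' distance from all genes was 0.58 there and 0.55 with TMM. On the deposited FPKM (fragments per kilobase, scaled to library depth), groups did not overlap for 18 higher members and 1 lower member, Bckdk, beside 6.09% of all genes higher and 36.7% lower. Summed over the members, FPKM came to 1593, 1582 and 1548 in Prdx1C52S 1, 2 and 4, against 1311, 1054 and 1354 in WT 6, 8 and 9. The groups did not overlap in this sum, and its mean was 1574 ± 23.5 in Prdx1C52S and 1240 ± 162 in WT (SD, n = 3 each).

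WT 8 stood apart from the other libraries. On the TMM scale it was the lowest library for 28 of the 31 members, while Prdx1C52S 2 was the highest for 19 and Prdx1C52S 1 for 10. WT 8 also had 30.9 FPKM of the bile duct keratin Krt19, against 3.97 and 2.09 in WT 6 and 9, and 33.3 FPKM of the pericentral gene Glul, against 253 and 262. Without WT 8, the edgeR test called 13 members higher and 0 lower at an adjusted p under 0.05, beside 2.7% of all genes higher and 1.94% lower, and the members' median was 0.38. DESeq2 called 18 members higher with all 6 libraries, beside 6.11% of all genes, and 0 lower, beside 9.06%. voom called 16 higher, beside 5.4%, and 0 lower, beside 5.31%. The 13 called by edgeR without WT 8 were Ivd, Mccc2, Acad8, Hibch, Hibadh, Aldh6a1, Hsd17b10, Acat1, Pcca, Mmab, Abat, Aldh2 and Aldh7a1. Library totals were 60326469 to 76164949 estimated counts in Prdx1C52S and 72164981 to 74725684 in WT. Prdx1 itself was at 261, 238 and 242 FPKM in the Prdx1C52S libraries, against 236, 232 and 270 in WT, and a substitution of 1 residue is not checked by this level.

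**Figure D1:**
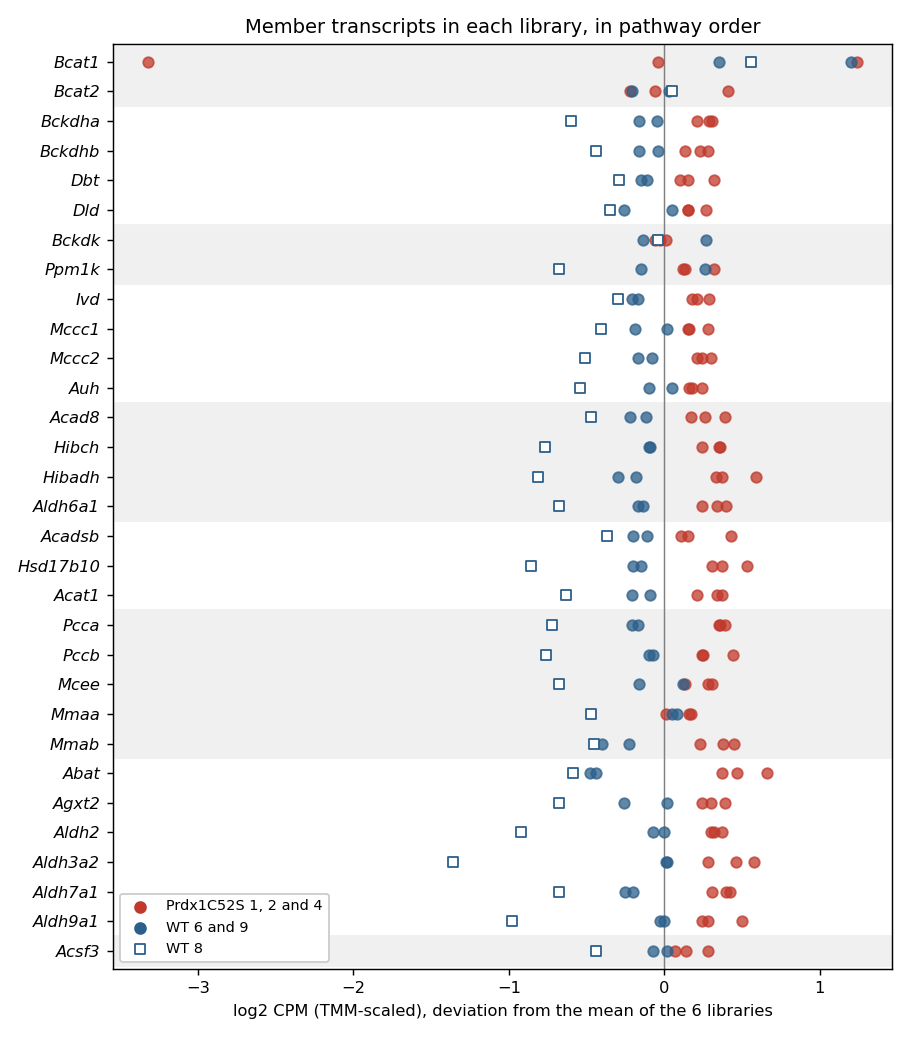
Deviation of each member's TMM-scaled log2 CPM from its mean over the 6 libraries (x axis), with members down the page in pathway order and shaded bands marking the steps. Red points are Prdx1C52S 1, 2 and 4, blue points WT 6 and 9, and open squares WT 8. For 26 of the 31 members all red points lie to the right of all blue marks, and WT 8 is leftmost for 28.

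Marker levels of other cell types and of liver zones differed between the same libraries. The 9 hepatocyte markers had 0.47 as the median of their log2 fold changes (8 of 9 positive, and 6 of 9 with library totals). On FPKM, Alb and Ttr were higher without overlap, Cps1 (mean 294 in Prdx1C52S against 434 in WT) and Apoa1 (3063 against 3668) were lower without overlap, and the other 5 overlapped. Alb was at 21166, 22278 and 20760 FPKM in Prdx1C52S, against 19647, 18116 and 18365 in WT. The summed FPKM of 6 macrophage markers ran from 192 to 218 in Prdx1C52S, against 456 to 502 in WT, and that of 7 cholangiocyte markers from 67.8 to 135, against 234 to 841. On FPKM, groups did not overlap for 6 of 6 macrophage and 6 of 7 cholangiocyte markers, all lower in Prdx1C52S. The 5 pericentral hepatocyte markers summed to 2706 to 3401 in Prdx1C52S and 601 to 2240 in WT, with 5 of 5 higher and no overlap. The 5 periportal markers summed to 403 to 498 in Prdx1C52S and 335 to 391 in WT, and their median log2 fold change was 0.04. Cyp2f2 made up most of this sum in the Prdx1C52S libraries and WT 6, but not in WT 8 (81.3 of 364 FPKM) or WT 9 (162 of 335). On FPKM, Cyp2f2 was higher in Prdx1C52S without overlap (mean 299 against 157), and Sds (64.2 against 109) and Cdh1 (4.04 against 18.9) were lower without overlap. T cell markers summed to 0.611 to 0.764 in Prdx1C52S and 2.34 to 4.87 in WT. Summed levels of B cell, resident Kupffer and endothelial markers overlapped between the groups, those of neutrophil markers ran from 4.51 to 15.7 in Prdx1C52S and 18.6 to 22.3 in WT, and those of 6 stellate markers from 55.7 to 71.4 in Prdx1C52S and 79 to 121 in WT. Of these 6, Col1a1, Col3a1, Dcn and Des were lower on FPKM without overlap, whereas Lrat (mean 7.39 in Prdx1C52S against 5.47 in WT) and Acta2 (2.02 against 1.88) overlapped. Among these genes, 1 stood at 0 in a library, the Kupffer gene Timd4 in WT 8. In bulk tissue, fewer cells of a type and less RNA per cell cannot be told apart, and the part of cell composition in the members' values was not tested.

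Transamination did not share the pattern. Bcat1, the cytosolic aminotransferase of brain and growing tissues, was at 0.053, 0 and 0.0198 FPKM in Prdx1C52S, against 0.0309, 0.0454 and 0.058 in WT, which is near the limit of detection in both groups. Bcat2, the mitochondrial aminotransferase, was at 4.84, 7.28 and 5.31 FPKM in Prdx1C52S, against 5.48, 8.1 and 6.4 in WT. The groups overlapped, the log2 fold change of Bcat2 was 0.11 (SE 0.17, adjusted p = 0.719), and it was -0.21 with library totals.

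The 4 subunits of the ketoacid dehydrogenase had fold changes between 0.37 and 0.52 on the log2 scale. After TMM scaling, each was higher in all Prdx1C52S libraries, as were 16.9% of all genes. Bckdha (ENSMUSG00000060376, chromosome 7, 25629946 to 25658981, minus strand, GRCm38) encodes the alpha chain of the decarboxylase, the chain that BCKDK phosphorylates. It was at 98.7, 101 and 104 FPKM in Prdx1C52S, against 92.3, 78.4 and 85.3 in WT (log2 fold change 0.52, SE 0.16, adjusted p = 0.115). The groups did not overlap on either scale. Its partner, the beta chain Bckdhb, was at 45.5, 39.8 and 43.1 FPKM in Prdx1C52S, against 37.6, 38.4 and 40.7 in WT (log2 fold change 0.42, SE 0.12). The transacylase core Dbt was at 15, 16.3 and 14.2 FPKM in Prdx1C52S, against 13.7, 15.4 and 13.9 in WT (0.37, SE 0.10). Both overlapped on FPKM. Dld, the dihydrolipoamide dehydrogenase shared with the pyruvate and oxoglutarate complexes, was at 42.6, 37.8 and 38.2 FPKM in Prdx1C52S, against 33, 38.3 and 40.6 in WT (0.37, SE 0.14), also with overlap on FPKM. With library totals the log2 fold changes of Bckdhb, Dbt and Dld were 0.13, 0.07 and 0.07. None of the 4 subunits passed without WT 8.

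The complex has 2 regulators among the members, and the groups overlapped on the TMM scale for both. Bckdk (ENSMUSG00000030802, chromosome 7, 127904082 to 127910221, plus strand) was at 3.69, 3.5 and 3.73 FPKM in Prdx1C52S, against 3.84, 5.1 and 5.09 in WT. On FPKM every Prdx1C52S library lay below every WT library. Its log2 fold change on the TMM scale was -0.07 (SE 0.13, adjusted p = 0.772), and -0.37 with library totals. Ppm1k, the phosphatase, was at 8.54, 7.18 and 7.34 FPKM in Prdx1C52S, against 9.17, 5.93 and 6.87 in WT (0.33, SE 0.22, adjusted p = 0.37; 0.06 with library totals), with overlap on FPKM too.

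A ratio of levels inside one library does not depend on library scaling. Per 100 FPKM of Bckdha, Bckdk stood at 3.74, 3.47 and 3.59 in Prdx1C52S, against 4.16, 6.5 and 5.97 in WT, with no overlap and means of 3.6 ± 0.139 and 5.54 ± 1.23 (SD, n = 3 each). The log2 ratio of these means was -0.62, and it was -0.49 without WT 8. Per 100 FPKM of Dbt, the subunit that binds the kinase, Bckdk stood at 24.6, 21.4 and 26.3 in Prdx1C52S, against 28.1, 33.2 and 36.5 in WT, again without overlap. Relative to Ppm1k, the kinase stood at 43.3, 48.8 and 50.8 per 100 FPKM in Prdx1C52S, against 41.9, 86 and 74.1 in WT, and WT 6 lay below all Prdx1C52S libraries. These ratios were chosen after the levels were seen and were not tested. Between subunits, the ratio of Bckdha to Bckdhb overlapped, at 217 to 254 per 100 FPKM in Prdx1C52S and 204 to 246 in WT. RNA levels carry no information on the phosphorylation of the complex.

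**Figure D2:**
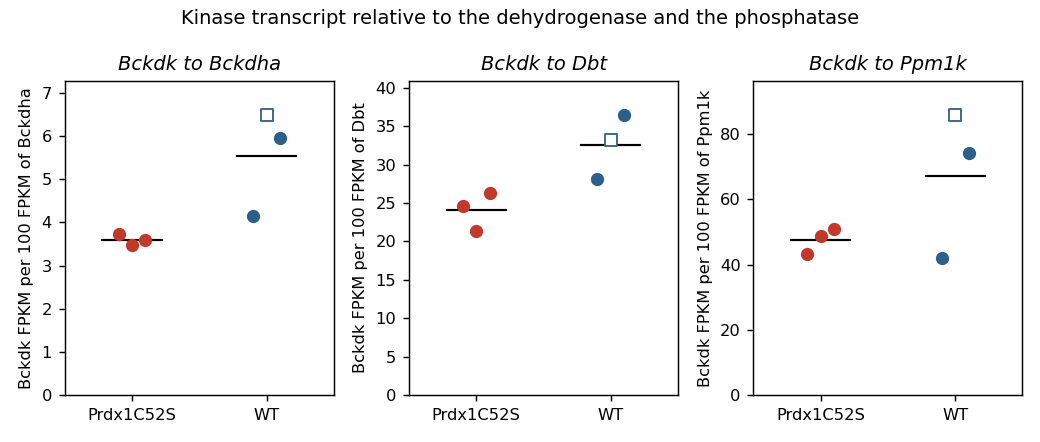
Bckdk FPKM per 100 FPKM of Bckdha, Dbt and Ppm1k (y axes, from 0) in each library of Prdx1C52S (red) and WT (blue, open square for WT 8), with lines at group means. The groups are apart for Bckdha (3.47 to 3.74 in Prdx1C52S, 4.16 to 6.5 in WT) and Dbt, and overlap for Ppm1k.

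Leucine-specific enzymes had fold changes of 0.37 to 0.49 on the log2 scale. After TMM scaling, 4 of 4 were higher without overlap, beside 16.9% of all genes. Ivd, the isovaleryl-CoA dehydrogenase, was at 24.7, 25.8 and 24.7 FPKM in Prdx1C52S, against 21.8, 24.6 and 20.9 in WT (log2 fold change 0.45, SE 0.10, adjusted p = 0.0842 and 0.0369 without WT 8). The carboxylase of the next step has a biotin-bearing alpha chain, Mccc1, and a beta chain, Mccc2. Mccc2 was at 18.8, 19.3 and 18.8 FPKM in Prdx1C52S, against 16.1, 15.8 and 17.1 in WT (0.49, SE 0.12). Mccc1 was lower in level, at 4.98, 5.3 and 4.94 FPKM in Prdx1C52S, against 4.43, 4.7 and 5.08 in WT (0.38, SE 0.12), and overlapped on FPKM. Auh, a hydratase of this arm that also binds RNA, was at 3.16, 2.94 and 2.93 FPKM in Prdx1C52S, against 3.11, 2.56 and 2.77 in WT (0.37, SE 0.15), with overlap on FPKM.

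The valine arm had larger fold changes, 0.54 to 0.84. It was the arm in which 4 of 4 enzymes passed without WT 8, beside 2.7% of all genes called higher. The difference between the arms was not tested. Acad8, the isobutyryl-CoA dehydrogenase, was at 12.6, 14.2 and 13.1 FPKM in Prdx1C52S, against 10.8, 11.2 and 11.5 in WT (log2 fold change 0.54, SE 0.12). Hibch, which frees hydroxyisobutyrate from CoA, was at 13.4, 13 and 12.1 FPKM in Prdx1C52S, against 11, 8.56 and 11 in WT (0.60, SE 0.18). Groups were apart for both on either scale.

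Hibadh (ENSMUSG00000029776, chromosome 6, 52546228 to 52640389, minus strand) oxidises hydroxyisobutyrate, a valine product that can leave the cell. It was at 27.7, 32.1 and 27.7 FPKM in Prdx1C52S, against 20, 17.4 and 21.7 in WT, or 29.2 ± 2.53 and 19.7 ± 2.17 (SD, n = 3 each). The gap between the lowest Prdx1C52S and the highest WT library exceeded the range within either group. Its log2 fold change was 0.84 (SE 0.19, adjusted p = 0.0842), and 0.68 without WT 8 (adjusted p = 0.0235). Aldh6a1, the methylmalonate semialdehyde dehydrogenase that closes the arm, was at 68.7, 69.3 and 62.8 FPKM in Prdx1C52S, against 54.2, 47 and 54.7 in WT (0.64, SE 0.18, adjusted p = 0.103 and 0.0307 without WT 8).

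On the isoleucine arm, the first enzyme differed least. Acadsb, the dehydrogenase of short branched acyl-CoA, was at 12.7, 15.4 and 12.8 FPKM in Prdx1C52S, against 12.3, 12.7 and 11.5 in WT (log2 fold change 0.46, SE 0.13), with overlap on FPKM. Hsd17b10, an X-linked multifunctional dehydrogenase that is also a subunit of mitochondrial RNase P, was at 111, 124 and 112 FPKM in Prdx1C52S, against 90.1, 68 and 86.3 in WT (0.78, SE 0.20, adjusted p = 0.094 and 0.0251 without WT 8). Acat1, the thiolase shared with ketone body metabolism, was at 148, 129 and 142 FPKM in Prdx1C52S, against 112, 103 and 120 in WT (0.60, SE 0.18, adjusted p = 0.108 and 0.0381 without WT 8). Groups did not overlap for Hsd17b10 and Acat1 on either scale.

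In the propionate steps, the carboxylase subunits and the cobalamin adenosyltransferase were apart between the genotypes, whereas the cobalamin chaperone was not. Pcca, the biotin-bearing chain of propionyl-CoA carboxylase, was at 16.8, 16.6 and 16.3 FPKM in Prdx1C52S, against 13.1, 11.1 and 12.6 in WT (log2 fold change 0.71, SE 0.15, adjusted p = 0.0821 and 0.0185 without WT 8). The other chain, Pccb, was at 58.8, 65.2 and 58.1 FPKM in Prdx1C52S, against 53.2, 40.7 and 51.8 in WT (0.59, SE 0.20, adjusted p = 0.128 and 0.0552 without WT 8). Per 100 FPKM of Pccb, Pcca stood at 25.5 to 28.6 in Prdx1C52S and 24.4 to 27.2 in WT, which overlap. Mcee, the epimerase, was at 31, 29.4 and 26.8 FPKM in Prdx1C52S, against 25.2, 21.7 and 30.3 in WT (0.45, SE 0.19), with overlap on FPKM.

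Mmab (ENSMUSG00000029575, chromosome 5, 114431034 to 114444060, minus strand) makes adenosylcobalamin, the cofactor of methylmalonyl-CoA mutase. It was at 5.53, 5.63 and 4.88 FPKM in Prdx1C52S, against 4.07, 4.31 and 3.58 in WT, and its groups did not overlap on either scale. The log2 fold change was 0.71 (SE 0.11, adjusted p = 0.0587), and 0.67 without WT 8 (adjusted p = 0.0273). Mmaa, which helps load that cofactor onto the mutase, was at 3.2, 3.11 and 2.81 FPKM in Prdx1C52S, against 3.39, 2.87 and 3.3 in WT (0.21, SE 0.16, adjusted p = 0.441; -0.08 with library totals). Per 100 FPKM of Mmaa, Mmab stood at 173, 181 and 173 in Prdx1C52S, against 120, 150 and 109 in WT, with no overlap. The start of Mmab lies 209 bp from that of Mvk, the mevalonate kinase of cholesterol synthesis, on the opposite strand. In human cells this pair is known to share a promoter that responds to sterols. Mvk was at 3.15, 2.56 and 2.6 FPKM in Prdx1C52S, against 3.1, 4.34 and 2.58 in WT, with a log2 fold change of 0.04 (SE 0.16, adjusted p = 0.89), so that the groups overlapped for Mvk and not for its neighbour.

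Abat had the highest fold change of the 31 members. Abat (ENSMUSG00000057880, chromosome 16, 8513429 to 8621568, plus strand) encodes the mitochondrial transaminase of GABA and beta-alanine. It was at 36.4, 43.1 and 38.2 FPKM in Prdx1C52S, against 22.7, 26.1 and 23.2 in WT, or 39.2 ± 3.48 and 24 ± 1.81 (SD, n = 3 each), a ratio of means of 1.63. The lowest Prdx1C52S library exceeded the highest WT library by more than the spread within either group. Its log2 fold change was 1.0 (SE 0.13, adjusted p = 0.0553). No gene had a smaller adjusted p, but other genes shared this value. Among them, Slc43a2 and the macrophage marker Itgam had smaller unadjusted p-values in the edgeR test (7.07e-05 and 1.19e-05, against 0.000106 for Abat). The fold change of Abat was 0.97 without WT 8 (adjusted p = 0.0106). It ran from 0.92 to 1.07 when each library was left out in turn. Relative to Alb, Abat stood at 0.172, 0.194 and 0.184 per 100 FPKM in Prdx1C52S, against 0.116, 0.144 and 0.126 in WT, again without overlap. The same ratio to Alb did not overlap for Hibadh and overlapped for Mmab.

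Agxt2, a mitochondrial transaminase that acts on beta-aminoisobutyrate and methylated arginines, was at 79.8, 72.8 and 70.7 FPKM in Prdx1C52S, against 57.1, 52.9 and 69 in WT (log2 fold change 0.59, SE 0.19, adjusted p = 0.119 and 0.0651 without WT 8). Among the aldehyde dehydrogenases, Aldh7a1 of lysine breakdown was at 85.8, 89.4 and 89.2 FPKM in Prdx1C52S, against 65.3, 59.9 and 67 in WT (0.74, SE 0.17, adjusted p = 0.0842 and 0.0182 without WT 8). Both had groups apart on either scale.

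The other 3 aldehyde dehydrogenases rested more on WT 8. Aldh2, which clears acetaldehyde, was at 379, 388 and 378 FPKM in Prdx1C52S, against 330, 227 and 344 in WT (log2 fold change 0.60, SE 0.26; 0.37 without WT 8, adjusted p = 0.0483). Aldh3a2, the fatty aldehyde dehydrogenase, was at 164, 129 and 148 FPKM in Prdx1C52S, against 125, 59.7 and 124 in WT (0.76, SE 0.35; 0.43 without WT 8, adjusted p = 0.0603). WT 8 was far below WT 6 and 9 for both. Aldh9a1, an enzyme of carnitine and GABA synthesis, was at 59.7, 67.2 and 56.6 FPKM in Prdx1C52S, against 53.8, 34.5 and 54.6 in WT (0.62, SE 0.26; 0.37 without WT 8, adjusted p = 0.0862). WT 6 and 9 also lay below every Prdx1C52S library for these 3 genes, by narrower gaps. Acsf3, the mitochondrial malonyl-CoA synthetase, was at 8.41, 8.96 and 7.87 FPKM in Prdx1C52S, against 8.13, 7.8 and 8.64 in WT (0.32, SE 0.14, adjusted p = 0.19; 0.03 with library totals), with overlap on FPKM.

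**Figure D3:**
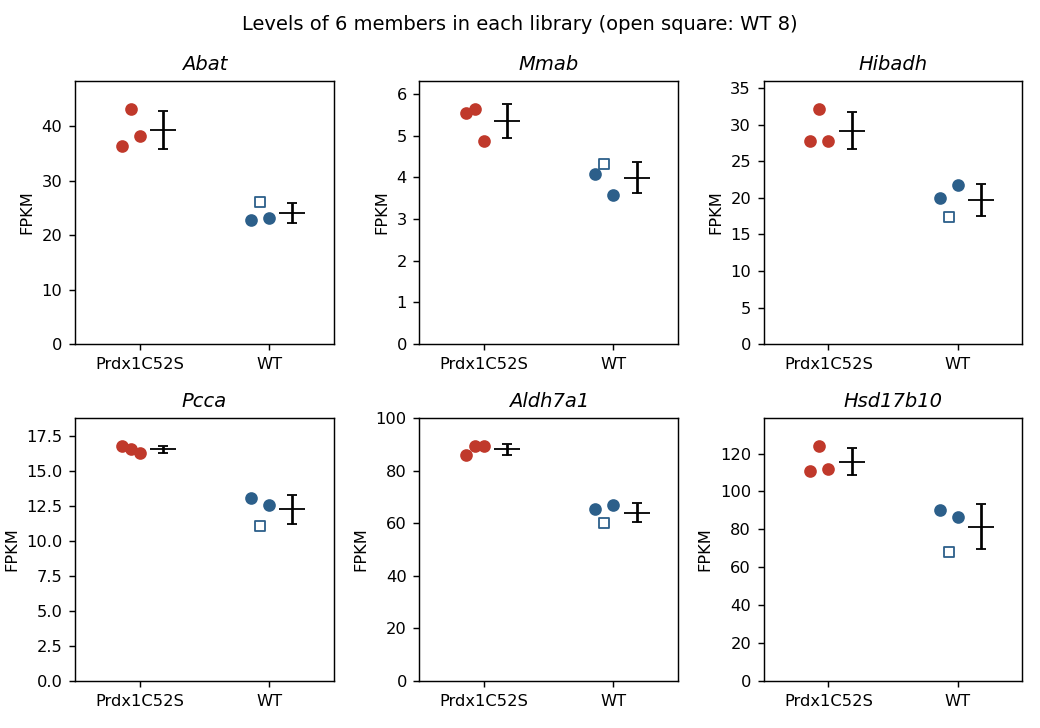
FPKM (y axes, from 0) of 6 members in each library of Prdx1C52S (red) and WT (blue, open square for WT 8), with bars at mean ± SD of 3 libraries. In each panel the lowest Prdx1C52S library lies above the highest WT library, by the widest relative gap in Abat (36.4 against 26.1).

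**Figure D4:**
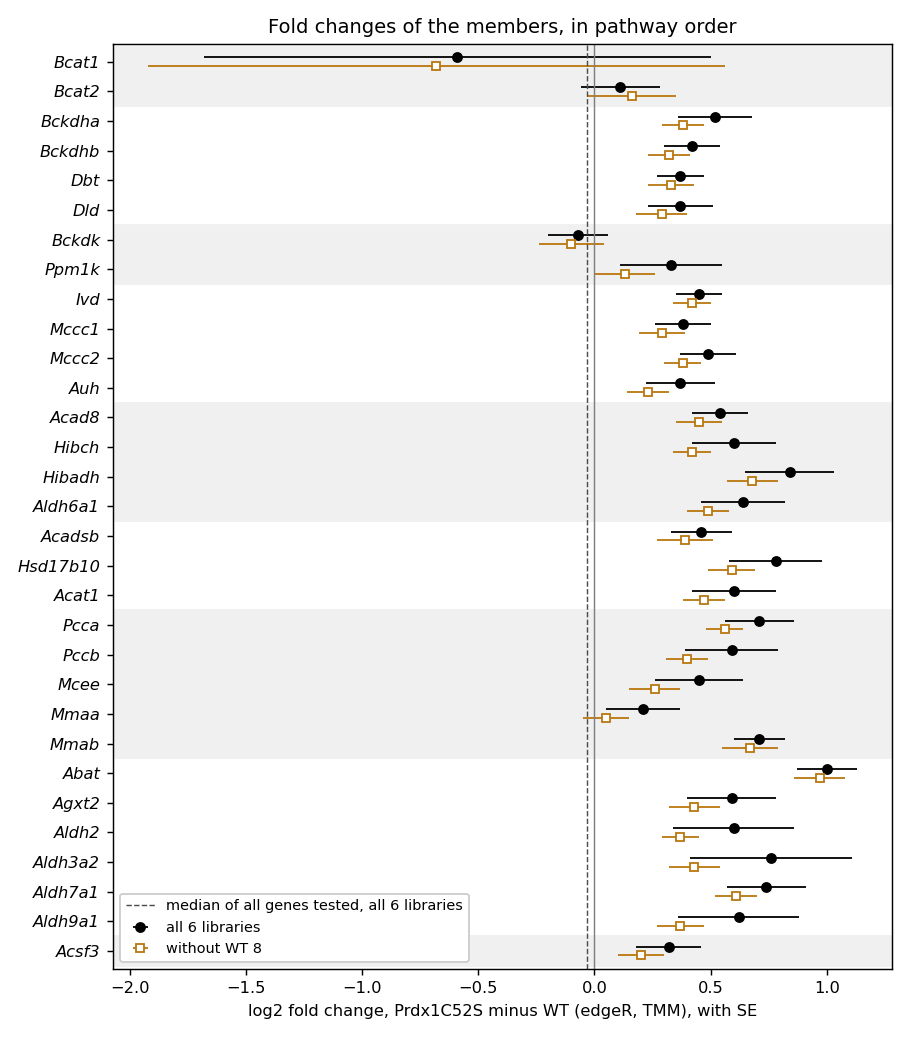
Log2 fold change of each member, Prdx1C52S minus WT, with its SE, for all 6 libraries (black) and without WT 8 (open squares); the dashed line is the median of all genes tested, -0.03. Bcat1, Bcat2, Bckdk and Mmaa lie nearest to or below that line, and Abat lies farthest above it.

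Other genes of the pathway, 36 in all, centred on a log2 fold change of 0.27. None passed an adjusted p of 0.05 with all libraries, 15 were higher and 4 lower at an unadjusted p under 0.05, beside 11.5% and 14.8% of all genes. The 4 lower ones are 11.1% of the list, below the share over all genes. Without WT 8 the test called 9 higher and 1 lower, beside 2.7% and 1.94% of all genes. The genes named here were picked from this list after their values were seen. Of the 6 carrier and uptake genes, Slc7a5, Slc3a2, Slc7a8 and Slc43a1 overlapped on the TMM scale (log2 fold changes -0.05, -0.21, 0.09 and -0.53). Slc25a44, the mitochondrial carrier of branched-chain amino acids, was at 20.3, 20.2 and 18.9 FPKM in Prdx1C52S, against 13.9, 16.3 and 15.7 in WT (0.66, SE 0.10, adjusted p = 0.0601 and 0.0208 without WT 8). Slc43a2, a plasma membrane carrier of large neutral amino acids, was at 1.82, 1.58 and 1.76 FPKM in Prdx1C52S, against 3.49, 5.3 and 3.41 in WT (-0.93, SE 0.12, adjusted p = 0.0553 and 0.0106 without WT 8). Neither gene had overlapping groups, and they lay on opposite sides.

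The 7 listed enzymes of steps shared with fatty acid oxidation had log2 fold changes of 0.23 to 0.70. Those that follow methylmalonyl-CoA had 0.49 to 0.57. Lowest were Hadhb (0.23, SE 0.20, with overlapping groups, and -0.05 with library totals) and Hadha (0.32, SE 0.20, with overlap on FPKM). Echs1, the enoyl-CoA hydratase, had a log2 fold change of 0.60 (SE 0.16, adjusted p = 0.0965) and Ehhadh, a peroxisomal bifunctional enzyme, 0.70 (SE 0.17, adjusted p = 0.0875). Methylmalonyl-CoA mutase, Mmut, was at 47.7, 43.6 and 42 FPKM in Prdx1C52S, against 36.6, 34.3 and 38.5 in WT (0.56, SE 0.15, adjusted p = 0.0984 and 0.0402 without WT 8). Sucla2, a subunit of succinyl-CoA ligase, was at 34.9, 33.4 and 33.6 FPKM in Prdx1C52S, against 26.3, 26.4 and 30.4 in WT (0.57, SE 0.15). For Echs1, Ehhadh, Mmut and Sucla2 the groups did not overlap, beside 16.9% of all genes higher without overlap on the TMM scale. By contrast, the 6 genes of cobalamin handling had a median of 0.06 and the 6 of biotin and lipoate attachment 0.19, and with library totals these medians were -0.23 and -0.10. Of 4 proposed regulators, Klf15, a factor that drives amino acid breakdown in fasting, was at 37.7, 42.7 and 40.4 FPKM in Prdx1C52S, against 33.8, 24.4 and 31.4 in WT (0.70, SE 0.20, adjusted p = 0.109 and 0.0368 without WT 8). Mlxipl encodes ChREBP, which in rat liver is known to raise Bckdk and lower Ppm1k. It was at 60.7, 76.9 and 66.5 FPKM in Prdx1C52S, against 54.2, 46.1 and 62.8 in WT (0.59, SE 0.22, adjusted p = 0.149), with overlap on FPKM. Ppara, the fatty acid receptor of liver, was at 32, 28.6 and 23.8 FPKM in Prdx1C52S, against 28.2, 16.6 and 29.1 in WT (0.44, SE 0.29, adjusted p = 0.372; 0.16 without WT 8). Ppargc1a, a coactivator of mitochondrial genes, was at 1.25, 0.809 and 1.15 FPKM in Prdx1C52S, against 1.74, 1.6 and 1.02 in WT (-0.15, SE 0.24, adjusted p = 0.735). Groups overlapped for both on either scale.

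The table's own pathway annotation gave a second view. The KEGG map of valine, leucine and isoleucine degradation was attached to 55 genes, of which 27 were members. Of its 28 other genes, 24 were tested. Their log2 fold changes had a median of 0.55, and 14 were higher and 2 lower at an unadjusted p under 0.05, beside 11.5% and 14.8% of all genes. Groups did not overlap on the TMM scale for 17 higher and 2 lower genes, beside 16.9% and 18% of all genes. The 2 lower ones were Oxct1 and Oxct2b, transferases of ketone body use. By position, the 31 members were spread over 16 chromosomes, 28 carried a mitochondrial term in the table's gene ontology column, and 8 overlapped an annotated gene on the same strand and 14 on the other strand. Reads of overlapping pairs may not have been told apart. The overlapping members include Hibadh, Pcca and Bckdha, whereas Abat, Mmab, Bckdk and Hsd17b10 overlapped no annotated gene.

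**Figure D5:**
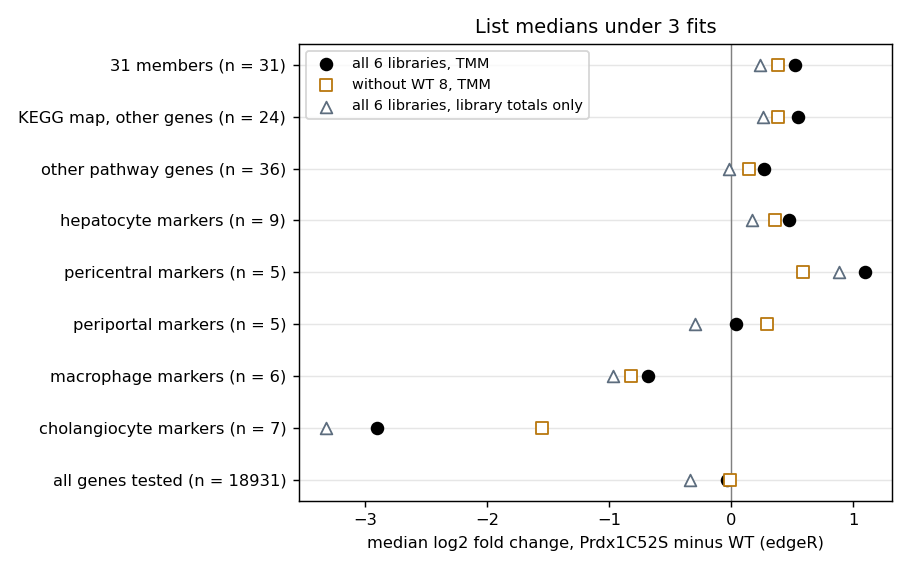
Median log2 fold change, Prdx1C52S minus WT, of the members, the other genes of the KEGG map, the 36 other pathway genes and cell markers for all 6 libraries with TMM (black circles), without WT 8 (squares) and with library totals only (triangles). Members lie at 0.52, 0.38 and 0.24 and hepatocyte markers at 0.47, 0.36 and 0.17, while all genes tested lie at -0.03, -0.01 and -0.34.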

How the data were processed

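Per the labels' protocols, liver RNA was extracted with Trizol, selected with oligo(dT) beads and sequenced in pairs. Per the submitters' processing notes, the build was mm9 and the tools, listed without roles, were StringTie 1.3.4d, edgeR, DESeq2, HISAT2 2.0.4, cutadapt 1.9 and UMI-tools. The gene coordinates, however, equal those of GENCODE M21 on GRCm38 for 28 of the 31 members. For each gene and library the authors deposited FPKM values and estimated counts, per the file headers. Low estimated counts peak at 4 (6204 values, beside 3538 at 3), so that 1 fragment is worth about 4 counts and fragments number about the totals divided by 4. Counts of this kind look more precise at low levels than the reads behind them. Use of strand and of molecular identifiers in counting is not given in the sources used here.

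Estimated counts were rounded and tested in edgeR 4.0.16 (R 4.3.3): filterByExpr, TMM factors (0.883 to 0.92 in Prdx1C52S and 1.03 to 1.28 in WT), robust quasi-likelihood F-tests, two-sided, and Benjamini-Hochberg adjustment over 18931 genes with a threshold of 0.05. SE was taken as |log2 fold change| over the square root of F. Between-library variation (common BCV) was 0.31 with all libraries, falling to 0.245 once WT 8 was left out. On simulated counts the fit was tested for direction and size. Alternatives were DESeq2 1.42.0, voom with quality weights and fits on log2(FPKM + 1) and log2(FPKM + 0.1) for genes of mean FPKM at least 0.1 (limma 3.58.1), other scalings, no filter, counts divided by 4, and each library left out. Members, lists and ratios were chosen with earlier results of these data known. All 31 members are named. No library pair was identical.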

Additional observations from a re-analysis of the deposited data

How the results depend on the processing

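Single-gene directions were followed over 39 genes and their alternatives, where 9 of 543 values changed sign, in Bcat2, Mmaa and Bckdk. The 39 genes were the members and Slc25a44, Slc43a2, Echs1, Ehhadh, Mmut, Sucla2, Klf15 and Mlxipl. Those added to the members were picked from the other pathway genes after their values were seen. Among all 36 other pathway genes, 25 log2 fold changes were positive and 11 negative with TMM, against 17 and 19 with library totals. Bcat2 was at -0.21 with library totals, -0.17 on log2(FPKM + 1) and -0.20 on log2(FPKM + 0.1), and from -0.09 to 0.24 with a library left out. Mmaa was at -0.08, -0.05 and -0.06 in the same 3 fits. Bckdk was at 0.00 with voom and from -0.15 to 0.07 with a library left out. Calls depended on the tool. The members called higher, 0 in edgeR, were 18 with DESeq2, 16 with voom, 2 without the filter, 1 with counts divided by 4, 1 with library totals and 1 in each FPKM fit, and 0 to 13 with a library left out, 13 being without WT 8. No member was called lower in any of these. Over all genes, calls higher and lower were 1145 and 1698 with DESeq2, 1023 and 1006 with voom, 105 and 91 without the filter, 43 and 40 with counts divided by 4, 35 and 125 with library totals, 40 and 118 on log2(FPKM + 1) and 58 and 221 on log2(FPKM + 0.1). With a library left out they ran from 0 to 522 higher and 0 to 375 lower, with 522 and 375 without WT 8 and 63 and 69 without WT 9. Members higher at an unadjusted p under 0.05, 22 in all, were 14 with library totals and in both FPKM fits, where 1 was lower with library totals and on log2(FPKM + 0.1). The members' median was 0.24, 0.24 and 0.25 in those 3 fits, and 0.38 to 0.62 with a library left out. Members with groups apart and lower were 1 on library totals and 1 on deposited FPKM, a scale added after the data were seen, and 0 to 1 with a library left out. The cause of the differences between tools was not tested. Ratios within a library do not change with scaling. No paired analysis was possible because the groups share no replicate numbers. Below about 0.1 FPKM, as for Bcat1, a value rests on few fragments.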
